A study of Mus musculus with 32 samples.

Results

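The genes described here are 10 members of the ADP-ribosylation machinery of the mouse: the macrodomain genes Parp9 and Parp14, the mono-ADP-ribosyltransferases Parp8, Parp10, Parp11 and Parp12, the antiviral protein Zc3hav1 (ZAP), the ubiquitin ligase Dtx3l that partners with PARP9, and the DNA repair enzymes Parp1 and Parp2. They were listed by gene symbol, with earlier results of these data known. Each of the 10 matched 1 of the 54281 gene identifiers in the count table. All 10 were among the 15257 genes that passed the filter on low counts. The samples were cultured bone marrow derived macrophages (BMDMs), and their RNA was sequenced. They came from mice with the R26-CreERT2 allele that were either Trex1 FL/FL, with both Trex1 alleles floxed, or Trex1 WT/FL, with a single floxed allele. Trex1 encodes a cytosolic DNA exonuclease. CreERT2 was expressed from the ubiquitously active Rosa26 locus in both genotypes, and 4-hydroxytamoxifen (4-OHT, 2 µg/ml for 22 h) activates it, so that treated FL/FL cells lose both floxed alleles while treated WT/FL cells lose their floxed allele and keep the wild-type allele. The treated controls thus also carried active Cre and a Trex1 deletion on one chromosome. Treated and untreated cells of both genotypes were harvested on days 1, 2, 3 and 4 after 4-OHT, which gave 16 groups of 2 libraries, 32 in all. The labels do not say whether the 2 libraries of a group came from separate mice or cultures, so p-values measure only the spread between these libraries, which may be technical.

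PARP enzymes transfer ADP-ribose from NAD+ to proteins or nucleic acids. PARP1 and PARP2 are activated by DNA breaks and build poly(ADP-ribose) chains, whereas most other family members attach a single ADP-ribose unit. Several of the latter, together with ZAP and the DTX3L-PARP9 complex, are known as interferon-stimulated genes (ISGs): ZAP has lost catalytic activity and binds viral RNA, PARP12 and PARP10 restrict virus replication, PARP11 acts on type I interferon (IFN) receptor signalling, and PARP14 reads and writes ADP-ribose in macrophage cytokine responses.

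The libraries held between 35120505 and 63760884 estimated counts, with a median of 44841991. Trex1 itself was at 0 in all treated FL/FL libraries of days 1, 3 and 4 and at 0.347 and 0.25 CPM (counts relative to the TMM-scaled library size) on day 2, against 12.2 to 79.4 CPM in treated WT/FL libraries. All annotated Trex1 sequence is shared with the overlapping gene Atrip, so this check rests on how Salmon divided those reads. Summed CPM of 8 macrophage markers lay between 1.64e+04 and 4.65e+04, and the 4 T cell markers summed to at most 0.0605 CPM. The highest sums of the other marker lists were 11.8 CPM for neutrophils and progenitors, 5.83 for B cells, 2.07 for dendritic cells, 1.84 for fibroblasts, 0.526 for mast cells and 0.095 for NK cells. By chi-square per degree of freedom, the 2 libraries of untreated FL/FL cells on day 1 stood apart from each other more than any other pair. The value was 46.5, against 8.45 to 19.3 in the other groups. Pearson's r of log2 CPM did not set this pair apart: it was 0.985, and pairs of all groups ran from 0.983 to 0.990. Parp10 was at 25.8 and 15.7 CPM in the 2 untreated FL/FL libraries of day 1.

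Promoter-proximal sequence is shown first because type I IFN signalling reaches its target genes through a short DNA element, the IFN-stimulated response element (ISRE). The ISRE core, a pair of GAAA half-sites separated by 2 bases of any kind, was searched on both strands in windows from 250 bases before to 50 bases after every annotated transcript start (genome build GRCm39, GENCODE annotation). At the canonical starts 0 of the 10 genes held a match, against 3.82% of 21515 protein-coding genes. At any annotated start 6 of 10 did, against 11.7% of those genes, and 12 of the 91 windows of the 10 genes did, against 3.18% of 168159 windows. The 10 genes have unequal numbers of annotated starts, and a gene with more starts has more windows to match. Windows at neighbouring starts overlap, so the 12 windows count the 6 distinct matches below more than once. The match of each of the 6 genes is printed with 10 bases on either side, 5′ to 3′ on the strand of the gene, with the match in capitals. In Parp11 the capitals run on into an overlapping match to the IFN-γ activated site (GAS, TTCNNNGAA).
Parp9: agaggcaaagTTTCAGTTTCgattccccag
Parp10: ccacccggtgTTTCTCTTTCcttttttacc
Parp11: ttccttttagTTTCGATTTCTTGGAAcccg
Parp12: cggagcccgcTTTCGGTTTCgtttccttcc
Parp14: tccaggaaatGAAAGCGAAAgaagttatct
Parp2: tgattcttgaTTTCATTTTCctaggcattg

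The Parp9 sequence lies at chr16:35759332-35759361 on the plus strand, in an exon of Parp9 that is also an exon of the divergently transcribed Dtx3l. The match begins 19 bases before a start shared by 3 annotated Parp9 transcripts. The Parp14 sequence lies at chr16:35691787-35691816 on the minus strand, in an exon, and its match begins 54 bases before a start of 2 transcripts. Those of Parp12 (chr6:39095160-39095189, minus strand, exonic) and Parp11 (chr6:127423749-127423778, plus strand, exonic) begin 57 and 44 bases before a start. The Parp10 sequence (chr15:76118673-76118702, minus strand) is intronic and its match begins 19 bases before an internal start of 1 transcript. Parp10 spans chr15:76115374-76127648, with its canonical start at 76127634. The Parp2 sequence (chr14:51056787-51056816, plus strand, exonic) begins its match 5 bases before an internal start near the end of the gene, which spans chr14:51044948-51058759. For Parp1, Parp8, Zc3hav1 and Dtx3l, no window at their own starts held the ISRE letters. GAS letters were in windows of 5 of the 10 genes, against 23.6% of all genes. Each distance is to a start picked because the match precedes it, and no ISRE match lay in the window of a canonical start. These matches are letters in a window, not measured binding.

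**Figure D1:**
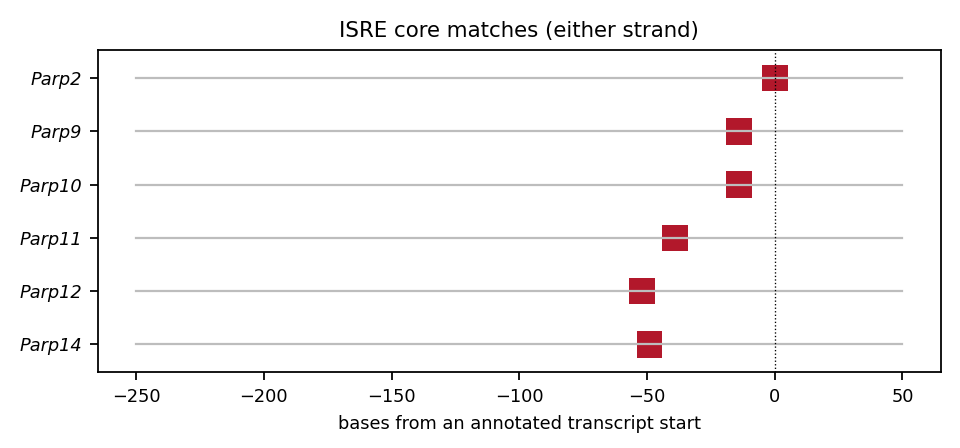
Position of the ISRE core matches (bars, 10 bases long) relative to an annotated transcript start (0, dotted line) in the 6 genes with a match. The horizontal axis gives bases from the start within the searched window of 250 bases before to 50 after. The start drawn was picked among those that the match precedes, so a position before it follows from that choice. The match begins 5 to 57 bases before the start so picked, which is not the canonical start in any of the 6 genes.

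The first question was how the 10 genes differed between treated FL/FL and treated WT/FL cells on each day. On day 1 none passed the threshold (edgeR, adjusted p under 0.01). On each of days 2, 3 and 4, the same 7 genes were higher in treated FL/FL cells: Parp9, Parp10, Parp11, Parp12, Parp14, Zc3hav1 and Dtx3l. Parp1, Parp2 and Parp8 did not pass on any day. In bulk RNA, fewer or more cells that express a gene and less or more RNA per cell cannot be told apart. Of all genes tested, 0.00655%, 5.69%, 6.69% and 9.84% were called higher on days 1 to 4, and 0.0131%, 2.48%, 5.42% and 11.7% lower. The median log2 fold change over the 10 genes was 0.07, 0.63, 0.51 and 1.04 on the 4 days, where the median over all genes tested lay between -0.04 and -0.01. Under the study's second threshold, a log2 fold change above 1.5, Parp11 on day 4 remained as the only call. That rule called 0.498%, 0.485% and 1.65% of all genes on days 2, 3 and 4.

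The transcript of the macrodomain protein PARP14 was the most abundant of the 10 per kilobase of annotated exon from day 2 on. Parp14 was at 123 and 104 CPM in treated FL/FL libraries on day 1, and at 1060 and 1040, 1230 and 1240, and 1140 and 1220 CPM on days 2, 3 and 4. Treated WT/FL libraries held 104 and 95.8, 719 and 619, 845 and 927, and 556 and 605 CPM on the same days. The groups touched at 104 CPM on day 1, and from day 2 on both FL/FL libraries lay above both WT/FL libraries. The log2 fold change of Parp14 was 0.65 ± 0.087 (SE), 0.48 ± 0.0868 and 1.02 ± 0.0875 on days 2, 3 and 4, with an adjusted p of 1.66e-09 on day 4.

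Parp9 and Dtx3l encode the 2 proteins of one complex, in which DTX3L carries the ubiquitin ligase activity. Parp9 was at 55.2 and 47.7 CPM in treated FL/FL libraries on day 1 and at 290.0 and 293, 317 and 312, and 309 and 317 CPM on days 2, 3 and 4. In treated WT/FL libraries it was at 46.5 and 45.0, 195 and 184, 204 and 221, and 125 and 136 CPM. Dtx3l was at 54.0 and 48.3, 388 and 380.0, 482 and 469, and 421 and 441 CPM in treated FL/FL libraries. Its values in treated WT/FL libraries were 45.8 and 47.5, 244 and 208, 297 and 358, and 192 and 223 CPM. The genotypes did not overlap for either gene on any day, though the day 1 gaps were small. On day 1 Parp10 and Parp12 did not overlap either, with FL/FL libraries higher. Nor did Zc3hav1, whose FL/FL libraries were lower (166 and 168 against 169 and 174 CPM). No member passed the threshold on day 1. The share of all genes without overlap was not computed. An exact permutation test of 2 against 2 libraries gives no p under 0.33, so nothing is concluded from these separations. The log2 fold changes on days 2, 3 and 4 were 0.62 ± 0.0686, 0.57 ± 0.0684 and 1.26 ± 0.0695 for Parp9. For Dtx3l they were 0.77 ± 0.11, 0.54 ± 0.109 and 1.06 ± 0.111. The genes lie on opposite strands of chromosome 16 and their exons overlap: 8.19% of the 31-base words of Parp9 and 9.94% of those of Dtx3l occur in another gene on either strand. The strand setting of the counting is not given in the sources used here, so reads from the overlap cannot be assigned with certainty.

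Parp11 moved the most of the 10 genes on days 2, 3 and 4. Treated FL/FL libraries held 16.9 and 14.9 CPM on day 1, and then 142 and 142, 128 and 123, and 100 and 103 CPM on the following days. Treated WT/FL libraries held 15.3 and 15.6, 63.9 and 57.9, 52.7 and 68.8, and 28.4 and 35.3 CPM. The libraries overlapped on day 1 and were far apart on the later days. Its fold was 2.33, 2.06 and 3.21 on days 2, 3 and 4. The day 4 value is 1.68 ± 0.127 on the log2 scale, at an adjusted p of 1.33e-09.

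Parp12, whose product carries CCCH zinc fingers like ZAP, was at 62.9 and 63.1 CPM in treated FL/FL libraries on day 1. It then reached 439 and 434 CPM and was at 357 and 331 and at 332 and 320.0 CPM on the days after. In treated WT/FL libraries Parp12 was at 58.8 and 56.2, 250 and 232, 207 and 228, and 120.0 and 135 CPM. Its log2 fold change was 0.86 ± 0.0758, 0.66 ± 0.0757 and 1.35 ± 0.077 on days 2, 3 and 4. The highest treated FL/FL group mean was thus on day 2 for Parp12 and Parp11, and on day 3 for Parp14, Parp9 and Dtx3l. For Parp9 the libraries of day 3 (312 and 317 CPM) and day 4 (309 and 317 CPM) overlapped. Differences between days within treated FL/FL cells were not tested.

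Parp10, a mono-ADP-ribosyltransferase with RNA recognition motifs, was at 26.4 and 26.1, 209 and 204, 185 and 169, and 182 and 178 CPM in treated FL/FL libraries. In treated WT/FL libraries it was at 24.7 and 24.2, 107 and 92.1, 106 and 121, and 74.6 and 75.3 CPM. Its log2 fold change was 1.05 ± 0.142, 0.64 ± 0.141 and 1.27 ± 0.143 on days 2, 3 and 4. Zc3hav1 had the smallest difference of the 7 genes. It was at 168 and 166, 328 and 343, 337 and 341, and 345 and 380.0 CPM in treated FL/FL libraries, and at 174 and 169, 269 and 270.0, 270.0 and 291, and 240.0 and 264 CPM in treated WT/FL libraries. The ZAP transcript was higher in FL/FL cells by 0.32 ± 0.0574, 0.27 ± 0.0573 and 0.52 ± 0.0575 on the log2 scale on days 2, 3 and 4.

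On day 3, 4 of the 7 calls depended on single libraries. Without library 1 of treated WT/FL cells on day 3, 3 of the 10 genes passed, and Parp10 (0.55), Parp14 (0.42), Zc3hav1 (0.22) and Dtx3l (0.41 on the log2 scale) did not. Without library 1 of treated FL/FL cells on day 3, Parp10 (0.57) and Dtx3l (0.52) did not pass, and without library 2 of that group Parp10 (0.71) and Zc3hav1 (0.27) did not. The 7 calls of day 2 and of day 4 held without each of the treated libraries of those days in turn.

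Parp8, Parp1 and Parp2 followed other courses. Parp8, a little-studied mono-ADP-ribosyltransferase, was at 54.1 and 54.2 CPM in treated FL/FL libraries on day 4 and at 50.2 and 44.0 in treated WT/FL libraries, a log2 fold change of 0.20 ± 0.0778 with an adjusted p of 0.0523. On day 2 Parp8 was at 0.23 ± 0.0789 (adjusted p = 0.0545) and on day 3 at -0.14 ± 0.0772 (adjusted p = 0.242), so the sign was not the same on the 3 days. The change of its difference was -0.37 from day 2 to day 3 and 0.34 from day 3 to day 4, with adjusted p of 0.0702 and 0.0601. Parp1 was at 141 and 134 CPM in treated FL/FL libraries on day 4 and at 148 and 145 in treated WT/FL libraries, a difference of -0.09 ± 0.0566 on the log2 scale. Its log2 fold changes on days 2 and 3 were -0.12 and -0.14, with adjusted p of 0.199 and 0.0812. On day 2 the treated FL/FL libraries, at 156 and 160 CPM, lay below the other 6 libraries of that day, which began at 165 CPM. Parp2 was at 32.0 and 35.5 CPM in treated FL/FL and 34.0 and 32.1 in treated WT/FL libraries on day 4, and its log2 fold change lay between -0.01 and 0.14 over the 4 days. No difference in Parp1 or Parp2 passed the threshold with 2 libraries a group.

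**Figure D2:**
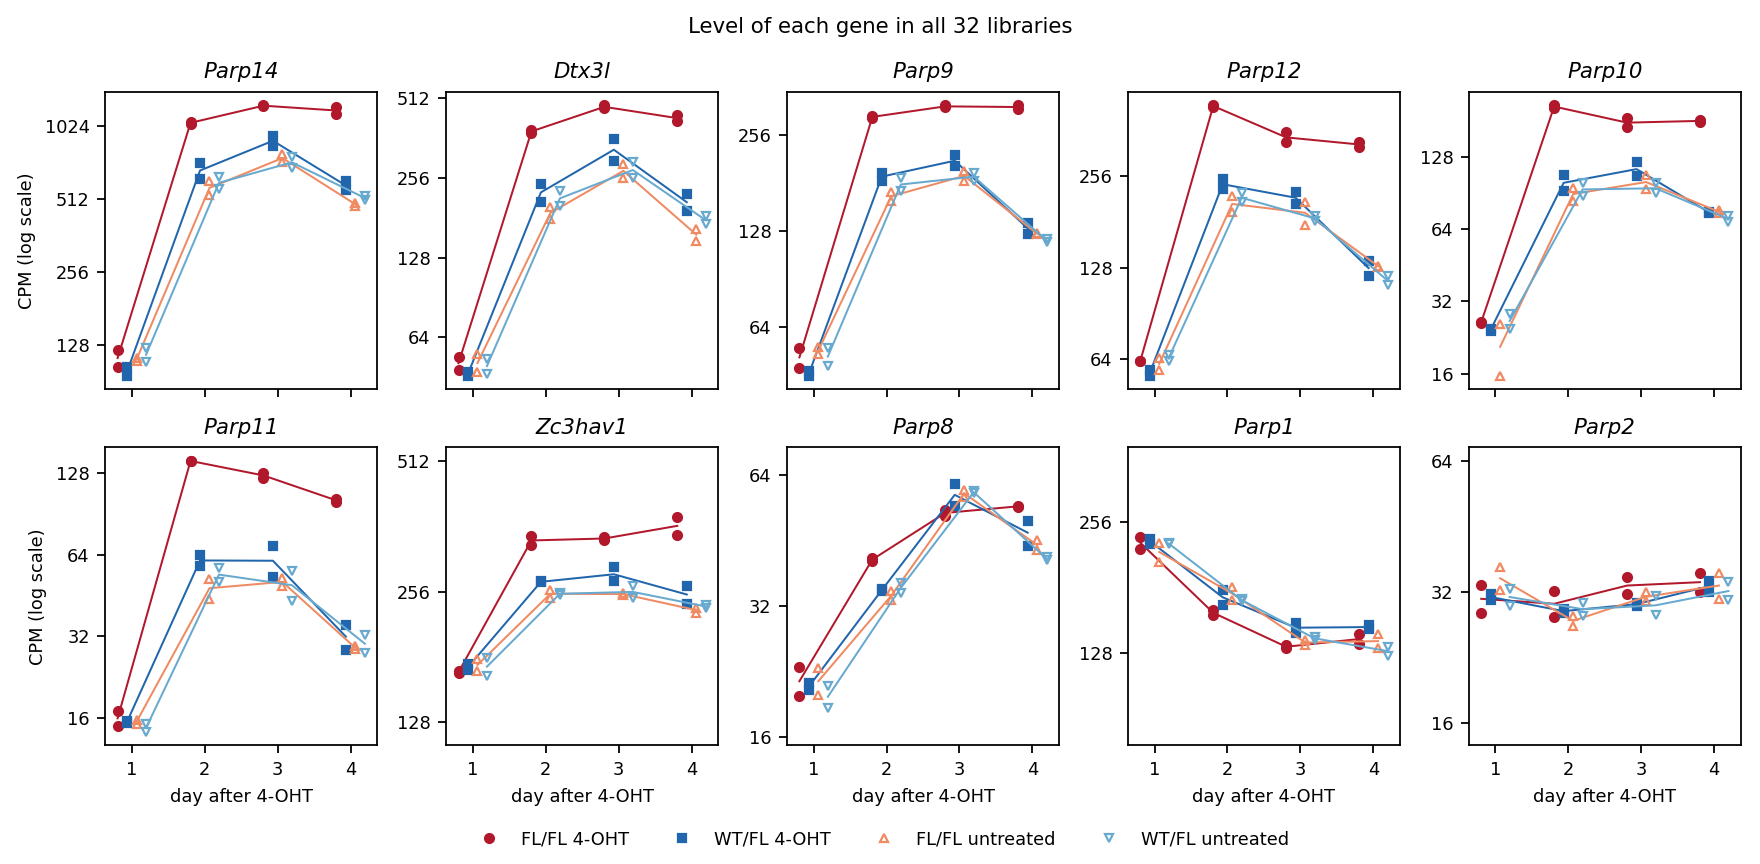
Level in CPM (vertical axis, log scale) of each of the 10 genes in all 32 libraries by day after 4-OHT (horizontal axis); each point is a library and lines join group means, filled symbols for treated and open symbols for untreated cells. From day 2 on, both treated FL/FL libraries lie above all others in the 7 panels from Parp14 to Zc3hav1, while those of Parp2 mix with the other groups and those of Parp1 lie at the low end on day 2.

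On day 1 the 10 log2 fold changes lay between -0.03 and 0.18. Beside the count of 0 from edgeR, 2 of the 10 genes had an unadjusted p under 0.05 and DESeq2 called 0. Of all 15257 genes tested, 308 had an unadjusted p under 0.05. Parp14 (0.18 ± 0.0883) and Parp9 (0.17 ± 0.071) had the highest values, at an adjusted p of 1 each. Parp9 and Dtx3l were below 0 with untreated FL/FL cells as the control, and Parp11 was below 0 after the untreated genotype difference was subtracted, so no direction is given for that day.

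**Figure D3:**
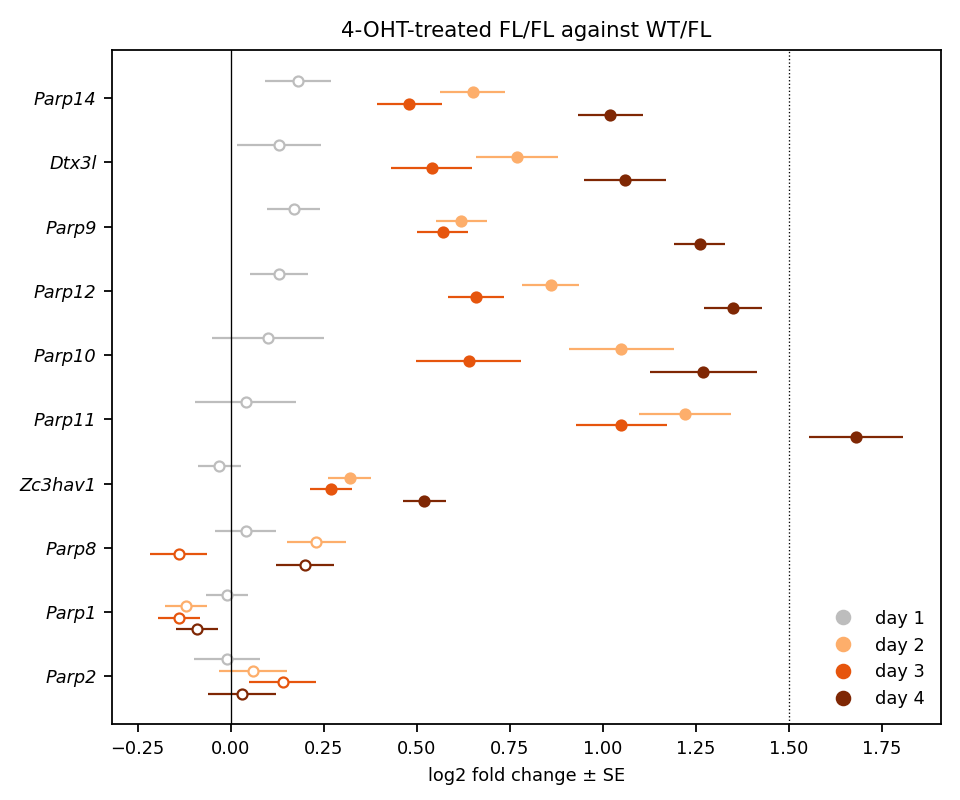
Log2 fold change (horizontal axis) of treated FL/FL against treated WT/FL cells for each of the 10 genes on days 1 to 4, with bars of 1 standard error. Filled points passed an adjusted p under 0.01 in edgeR, open points did not, and the dotted line marks a log2 fold change of 1.5, which Parp11 alone passes, on day 4.

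Whether the difference itself changed from day to day was tested in the same fit. From day 1 to day 2 it grew for Parp9, Parp10, Parp11, Parp12 and Zc3hav1, 5 of the 10 genes, where 3.02% of all genes changed in either direction. The growth was 1.18 ± 0.182 on the log2 scale for Parp11 and 0.95 ± 0.207 for Parp10. Parp14 (0.46, adjusted p = 0.025) and Dtx3l (0.64, adjusted p = 0.0182) missed the threshold here, where DESeq2 called 7 genes. The calls of Parp10 and Zc3hav1 were lost without any one of the 8 libraries, with values of 0.85 to 1.06 and 0.32 to 0.37, and that of Zc3hav1 also with upper-quartile scaling (0.32) or no filter (0.35). That of Parp9 (0.35 to 0.56) was lost without each library but library 1 of treated WT/FL cells on day 2 and library 1 of treated FL/FL cells on day 1, so that 2 to 4 genes passed. From day 2 to day 3, 0 of the 10 genes passed in edgeR, beside 0.905% of all genes, and DESeq2 called 0. An unadjusted p under 0.05 was found for 1 of the 10 genes and for 2258 of all 15257. From day 3 to day 4 the difference grew for Parp9 (0.70 ± 0.0969), Parp12 (0.69 ± 0.107) and Parp14 (0.54 ± 0.123), 3 genes beside 3.7% of all genes, and for 6 genes in DESeq2. The Parp14 call was lost without each library but library 1 of treated WT/FL cells on day 3 and library 2 of those on day 4, at 0.47 to 0.60. Between these days the mean of Parp9 went from 213 ± 12.2 to 130.0 ± 7.81 CPM (SD, n = 2) in treated WT/FL cells and from 315 ± 3.83 to 313 ± 5.7 CPM in treated FL/FL cells. Parp14 went from 886 ± 57.9 to 580.0 ± 34.0 CPM in treated WT/FL cells and from 1240 ± 5.07 to 1180 ± 53.6 CPM in treated FL/FL cells. In these group means of Parp9 and Parp14, the controls were lower on day 4 than on day 3, while the FL/FL cells were near level. Differences between days within treated cells of either genotype were not tested.

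The comparisons with untreated cells show the background of genotype and of 4-OHT. Between untreated FL/FL and untreated WT/FL cells, 0 of the 10 genes passed in edgeR on each day, with an unadjusted p under 0.05 for 1, 0, 0 and 1 genes on days 1 to 4 and 0 calls in DESeq2. Of all genes, 0%, 0%, 0% and 0.0655% were called, and 1129, 588, 468 and 2414 of 15257 had an unadjusted p under 0.05. The 10 log2 fold changes lay between -0.18 and 0.16 on days 2 to 4. Parp10 was at -0.35 on day 1, in the group whose 2 libraries stood apart by chi-square. Between treated and untreated WT/FL cells, 0 genes passed in edgeR and 0 in DESeq2 on each day, where 0.00655%, 0.0918%, 0.341% and 0.216% of all genes were called. On day 3, however, 6 of the 10 had an unadjusted p under 0.05, against 3, 0 and 2 on days 1, 2 and 4. Of all 15257 genes tested, 378, 530, 1281 and 1080 had one on days 1 to 4. Parp11 (0.30 ± 0.124), Parp14 (0.29 ± 0.0867), Parp10 (0.27 ± 0.142) and Dtx3l (0.25 ± 0.109) had the highest values on day 3, with adjusted p of 0.175 to 0.675. Parp10 was not among the 6 (unadjusted p = 0.0756 in edgeR), which also held Parp12 (0.22), Parp9 (0.16) and Zc3hav1 (0.13).

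Within FL/FL cells, treated cultures were compared with untreated ones. On day 1, 0 of the 10 genes passed in edgeR and DESeq2 called 0. An unadjusted p under 0.05 was found for 1 of them and for 1068 of all 15257 genes. On days 2 and 3 the same 7 genes rose, and on day 4 these and Parp8 (0.30 ± 0.0783, adjusted p = 0.0044), which lost its call without any one of the 4 libraries. The shares of all genes called higher were 0%, 7.49%, 8.12% and 10.2% on days 1 to 4. The log2 fold change on day 4 was 1.82 ± 0.129 for Parp11, 1.46 ± 0.112 for Dtx3l, 1.33 ± 0.0772 for Parp12, 1.32 ± 0.0698 for Parp9, 1.28 ± 0.0881 for Parp14, 1.26 ± 0.144 for Parp10 and 0.64 ± 0.0577 for Zc3hav1. This comparison shares the treated FL/FL libraries with the first one. Without library 1 of untreated FL/FL cells on day 1, Parp10 passed on day 1 with 0.74 on the log2 scale, which rests on the single library left at 15.7 CPM.

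When the difference between untreated genotypes was subtracted from that between treated genotypes, 0, 6, 3 and 7 of the 10 genes passed on days 1 to 4. The matching shares of all genes were 0%, 3.55%, 2.65% and 5.15%. On day 1, 0 of the 10 genes had an unadjusted p under 0.05 in edgeR, beside 545 of all 15257, and DESeq2 called 0. On day 3 the genes that passed were Parp9 (0.56 ± 0.0969), Parp11 (1.00 ± 0.175) and Parp12 (0.60 ± 0.107), and DESeq2 called 6. Parp10, Parp14, Zc3hav1 and Dtx3l lay between 0.29 and 0.56 there.

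**Figure D4:**
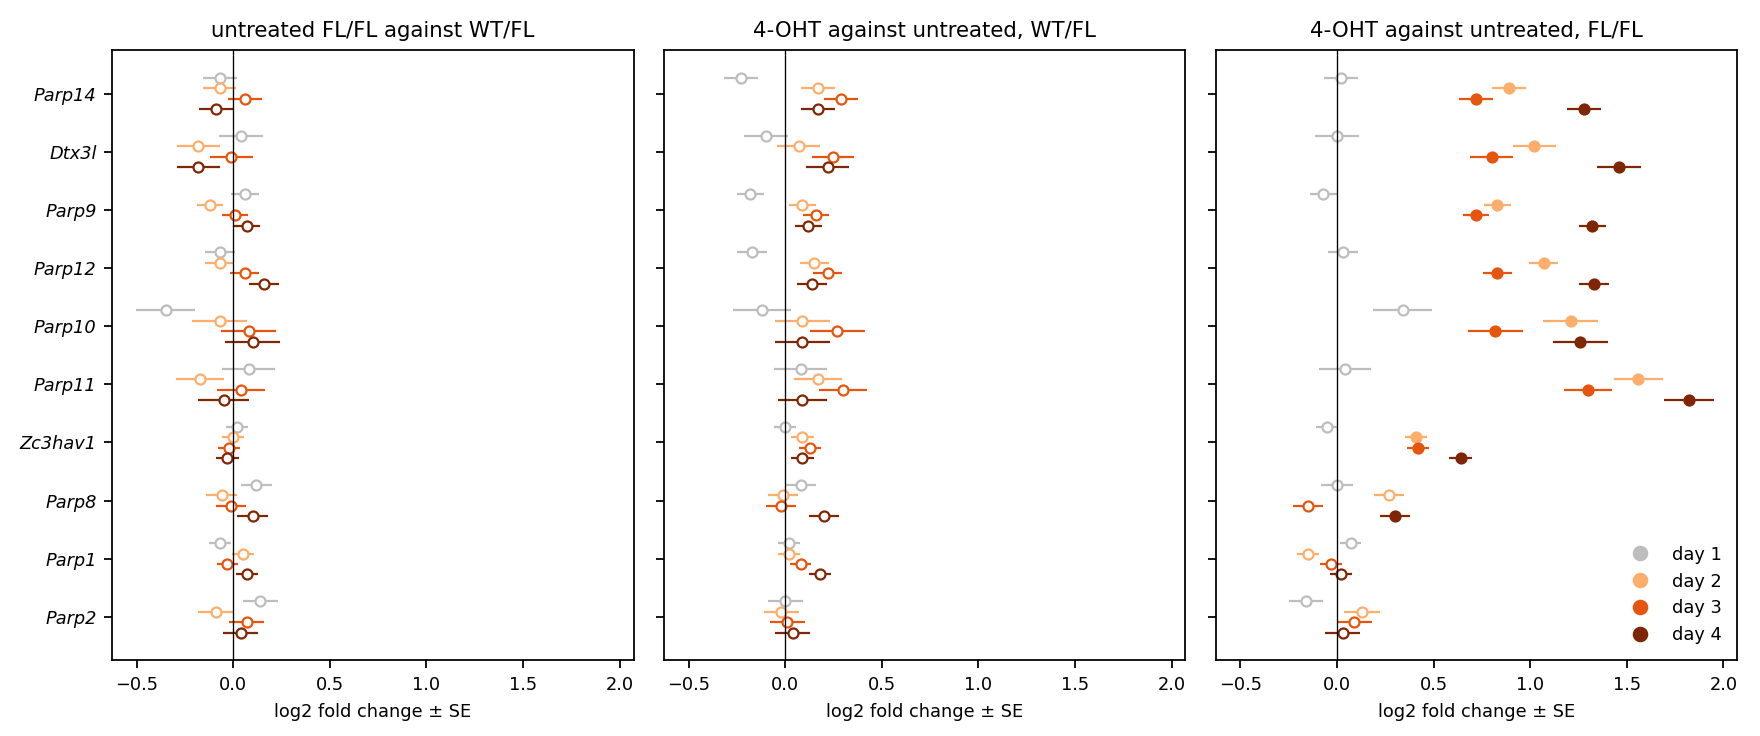
Log2 fold change (horizontal axis) of the 10 genes in untreated FL/FL against untreated WT/FL cells (left), treated against untreated WT/FL cells (middle) and treated against untreated FL/FL cells (right), by day, with bars of 1 standard error and filled points for an adjusted p under 0.01. No point in the left and middle panels is filled, while the upper 7 genes of the right panel are filled on days 2, 3 and 4.

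The IFN-linked members also changed between days without any treatment. In untreated cells, taking both genotypes together, 8 of the 10 genes rose from day 1 to day 2 and Parp1 and Parp2 fell, where 25.6% of all genes rose and 24% fell. Parp14 rose 5.08-fold, from 117 ± 11.4 to 596 ± 44.3 CPM in WT/FL and from 112 ± 3.1 to 567 ± 51.3 CPM in FL/FL cells. Dtx3l rose 3.98-fold, Parp10 3.89-fold, Parp11 3.39-fold, Parp12 3.38-fold, Parp9 3.24-fold, Parp8 1.67-fold and Zc3hav1 1.47-fold. These cells had received no 4-OHT. Parp1 fell to 0.772 of its day 1 level, and Parp2 to 0.865, with log2 fold changes of -0.37 and -0.21. The call of Parp2 was lost without library 2 of WT/FL cells on day 1, library 1 of WT/FL cells on day 2, or library 2 of FL/FL cells on either day, and its value ran from -0.25 to -0.16 without single libraries.

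From day 2 to day 3 in untreated cells, Parp8 rose 1.69-fold, Dtx3l 1.36-fold, Parp14 1.27-fold and Parp9 1.11-fold, 4 of the 10 genes beside 24.8% of all genes. The call of Parp9 (0.15 on the log2 scale) was lost at 0.12 to 0.14 with RLE scaling, no filter, only the compared groups or DESeq2. It was also lost without each library but library 1 of either genotype on day 2 and library 2 of FL/FL cells on day 3, at 0.12 to 0.18. Parp12 was at -0.16 with an adjusted p of 0.0109, and it was called lower with RLE scaling (-0.18), no filter (-0.17), DESeq2 (-0.18), an adjusted p under 0.05, or without library 2 of either genotype on day 2 or library 1 of FL/FL cells on day 3 (-0.23 to -0.19). Parp1 fell again, to 0.793 of its day 2 level, beside 23.4% of all genes. From day 3 to day 4, 0 of the 10 genes rose in edgeR or DESeq2, and 10.7% of all genes rose. Parp8, Parp9, Parp10, Parp11, Parp12, Parp14 and Dtx3l, 7 of the 10, fell, beside 11.8% of all genes. Their folds lay between 0.588 for Parp11 and 0.749 for Parp10, whose call was lost without each library but library 1 of WT/FL and library 2 of FL/FL cells on day 3, at -0.46 to -0.37 on the log2 scale. Zc3hav1 was at 0.921 of its day 3 level with an adjusted p of 0.0267. The labels name no plate or batch within a day, so day and any batch that went with it cannot be told apart.

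Levels were compared between genes per kilobase of annotated exon. In untreated WT/FL cells on day 1 the order was Parp1 (31.3 CPM per kb), Zc3hav1 (16.8), Parp12 (14.8), Parp14 (12.2), Parp9 (10.3), Dtx3l (8.71), Parp2 (7.18), Parp10 (6.2), Parp8 (1.54) and Parp11 (1.14), and no neighbours overlapped between libraries. By day 2 Parp14 led with 62.2 and Parp12 followed with 50 CPM per kb, while Parp1 was the sixth with 23.2, level with Parp10. In treated FL/FL cells on day 4 the order was Parp14 (123), Dtx3l (75.2), Parp12 (74.9), Parp9 (62.3), Parp10 (42.1), Zc3hav1 (35.5), Parp1 (18.9), Parp11 (7.92), Parp2 (7.75) and Parp8 (4.21). Dtx3l and Parp12 overlapped there, as did Parp11 and Parp2. Parp11 thus had the largest fold but remained among the least abundant of the 10 transcripts.

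Across the 16 group means, the log2 levels of the 7 IFN-linked genes correlated with each other at Pearson's r of 0.92 to 1, over points that share the day of harvest. Parp8 correlated with Parp14 at 0.91 and with Parp1 at -0.95, and Parp2 with the 7 genes at -0.25 to -0.06. The genes whose pattern was most like that of Parp14 were Slfn5 (r = 0.999), Trim30d (0.998), H2-T24 (0.998), Iigp1 (0.998) and Trafd1 (0.997). Those most like Parp1 were Cdh1 (0.988), Ubash3b (0.987), Syne3 (0.986), Golim4 (0.986) and Ctbp2 (0.984). These values describe 16 groups and carry no test.

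Other genes of the ADP-ribose system were counted in the same comparison of treated genotypes. The shares of all genes called higher and lower in it are given above. Of 7 further PARP family genes (Parp3, Parp4, Parp6, Parp16, Tiparp, Tnks and Tnks2), 0, 2, 0 and 1 rose and 0 fell in treated FL/FL against treated WT/FL cells on days 1 to 4. Parp3, a mono-ADP-ribosyltransferase of DNA break repair, rose by 0.73 ± 0.0655 on day 2 and 0.43 ± 0.0669 on day 4, and Tiparp, the target gene of the aryl hydrocarbon receptor, by 0.35 ± 0.0792 on day 2. Of 6 genes that remove ADP-ribose, only Macrod1 passed, lower by 0.64 ± 0.164 on day 3 on the log2 scale (-0.64). Nampt, the rate-limiting enzyme of NAD salvage, was the only gene of 8 in NAD supply and use to pass, higher by 0.47, 0.53 and 0.66 on days 2, 3 and 4.

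Of 4 ZAP cofactors and partners, Trim25, the ubiquitin ligase that ZAP needs for its antiviral activity, rose by 0.57 ± 0.0691, 0.39 ± 0.0687 and 0.68 ± 0.069 on days 2, 3 and 4, and N4bp1, a ribonuclease, was at -0.23 on days 3 and 4. Of the other Deltex ligases, 3 of 4 were tested: Dtx4 fell on days 2, 3 and 4 (-0.73, -0.54 and -0.58), Dtx3 fell on day 4 (-0.47) and Dtx2 rose on day 4 (0.40). None of these followed Dtx3l on days 2 and 3. Of 8 partners of PARP1 and PARP2 in strand break repair, Polb rose on days 2 and 4 (0.31 and 0.64), Lig3 rose on day 3 (0.31) and Aplf fell on day 4 (-0.75). The other 5 did not pass on any day.

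IFN target genes moved with the 7 members. Of a list of 10 such genes, 7 are described here. Of Irf7, Ifit1, Ifit3, Isg15, Usp18, Rsad2 and Mx1, 7 of 7 rose on each of days 2, 3 and 4 between treated genotypes. Their median log2 fold changes were 0.53, 1.65, 1.31 and 2.91 on the 4 days, and none of the 7 passed on day 1. Each median was above that of the 10 ADP-ribosylation genes, among them Parp1, Parp2 and Parp8. In untreated cells all 7 rose from day 1 to day 2 (median 3.86), 2 rose and 1 fell from day 2 to day 3 (median 0.04), and all 7 fell from day 3 to day 4 (median -1.14).

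Cell division genes and macrophage markers also moved with the comparison. Of 8 proliferation genes, 0, 1, 0 and 0 rose and 0, 1, 1 and 7 fell in treated FL/FL against treated WT/FL cells on days 1 to 4, with a median of -1.45 on day 4. Of all genes tested, 0.0131%, 2.48%, 5.42% and 11.7% were called lower on these days. Of 8 macrophage markers, 0, 1, 2 and 1 rose and 0, 1, 4 and 3 fell. The marker that rose on days 2, 3 and 4 was Fcgr1, the high-affinity IgG receptor, by 1.52, 1.28 and 2.27, and Csf1r was at -0.36 and -0.28 on days 3 and 4. The summed macrophage markers lay between 1.64e+04 and 3.88e+04 CPM in treated FL/FL and between 1.68e+04 and 4.65e+04 CPM in treated WT/FL libraries. Their part in the values of the 10 genes was not tested.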

How the data were processed

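Bone marrow derived macrophages of 2 genotypes, with and without 4-OHT, were sequenced on 4 days in 32 libraries. The authors checked reads with FastQC, quantified transcripts with Salmon against GRCm39 and made gene-level tables with tximport; the table deposited by the authors holds estimated counts for each gene, with no normalisation, and the submitters' processing notes name FastQC 11.9 and DESeq2 1.32. Strand setting and annotation release are not given in the sources used here. Here the estimated counts were rounded to whole numbers. Of 54281 identifiers, 51048 matched GENCODE vM39, and the unmatched ones held 0.32% of the counts. Genes passing filterByExpr (minimum count 10) were scaled by TMM and tested with edgeR 4.0.16 in R 4.3.3, by the quasi-likelihood test on 16 group means with 16 residual degrees of freedom. A gene was called at a Benjamini-Hochberg adjusted p under 0.01, over all 15257 genes tested; the study also required an absolute log2 fold change above 1.5. Every standard error printed after a log2 fold change is its absolute value divided by the square root of F. CPM used TMM-scaled library sizes.

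The 10 genes and all gene lists were chosen with earlier results of these data known. Genes named with values were the 10 members, list genes that passed, and the 5 genes with the highest correlation with Parp14 and with Parp1. The list of IFN target genes is given without some of its genes, which are not reported here. The motif search was chosen after the data were seen, and the search at all annotated starts was added after the canonical starts held no ISRE match. Libraries of a group were numbered in order of deposition, a name only; no pair agreed within sampling noise. On simulated counts for 14656 genes in the day 4 comparison of treated genotypes, the fit called 37 of 67 genes changed by a log2 value of 0.5, 61 of 67 changed by 1, 66 of 66 changed by 2 and 0 of 14456 unchanged genes. The simulation held no day effects: each gene had 1 mean level in all groups. Only well-expressed genes were changed, and only in treated FL/FL cells on day 4. These rates need not hold in the real data, where many genes changed between days. Alternatives were RLE and upper-quartile scaling, no filter, fits to the compared groups only, DESeq2 1.42.0, an adjusted p under 0.05, other controls, and each library left out in turn. The exact permutation test of 2 against 2 libraries cannot go below p = 0.33, so single-gene permutation tests were not used.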

Additional observations from a re-analysis of the deposited data

Results flagged for a closer look

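The difference between the treated genotypes changed from day to day, by a test of that change. From day 1 to day 2 it grew on the log2 scale by 0.45 for Parp9, 0.95 for Parp10, 1.18 for Parp11, 0.73 for Parp12 and 0.35 for Zc3hav1. From day 3 to day 4 it grew by 0.70 for Parp9, 0.69 for Parp12 and 0.54 for Parp14.

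The difference between genotypes also differed between treated and untreated cells, by the interaction of genotype and treatment. On day 2 the interaction on the log2 scale was 0.74 for Parp9, 1.12 for Parp10, 1.39 for Parp11, 0.92 for Parp12, 0.72 for Parp14 and 0.95 for Dtx3l. On day 3 it was 0.56 for Parp9, 1.00 for Parp11 and 0.60 for Parp12. On day 4 it was 1.19 for Parp9, 1.17 for Parp10, 1.73 for Parp11, 1.19 for Parp12, 1.11 for Parp14, 0.55 for Zc3hav1 and 1.24 for Dtx3l.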

How the results depend on the processing

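With 2 libraries a group, small differences were not detectable, and a comparison with 1 library left out takes the lone library to vary like the other groups. The 7 calls between treated genotypes on days 2 and 4 were made under each scaling, filter and tool tried and without each library of those groups in turn, except that Zc3hav1 on day 2 (0.32) missed the threshold once the untreated genotype difference was subtracted. The same subtraction left 3 calls on day 3. With untreated FL/FL cells as the control, 1 gene passed both thresholds of the study on day 2. With no filter on low counts, 1 of the 10 genes was called between untreated genotypes on day 1, with 4-OHT in WT/FL cells on day 3, with 4-OHT in FL/FL cells on day 1, and for the change from day 2 to day 3. The change from day 3 to day 4 passed for 5 genes at an adjusted p under 0.05 and for 6 with no filter and with DESeq2; the interaction on day 3 passed for 6 genes under the same 3 alternatives. The cause was not tested.

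Leaving out single libraries gave counts of 3 to 7 for treated genotypes on day 3, 2 to 4 for the change from day 1 to day 2, 2 to 4 for the change from day 3 to day 4, and 0 to 1 on day 1 for untreated genotypes, for 4-OHT in FL/FL cells and for the interaction.

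Values that changed sign were small and did not pass. Between treated genotypes on day 1, Parp1 was at 0.07 and Parp9 at -0.07 and Dtx3l at -0.004 with untreated FL/FL cells as the control, and Parp1 at 0.05, Parp8 at -0.08 and Parp11 at -0.04 after the subtraction. On day 4 Parp1 was at 0.02 and Parp2 at -0.01 under these alternatives in turn. With 4-OHT in FL/FL cells on day 4, Parp1 was at -0.01 with upper-quartile scaling. From day 2 to day 3 in untreated cells, Zc3hav1 was at -0.01 with RLE scaling, -0.0018 with no filter, -0.03 with only the compared groups and -0.02 with DESeq2. Without single libraries, the values ran from -0.06 to 0.03 for Parp1, -0.13 to 0.09 for Parp2, -0.08 to 0.14 for Parp8 and -0.05 to 0.13 for Parp11 between treated genotypes on day 1. Parp2 ran from -0.05 to 0.15 on day 2 and from -0.05 to 0.10 on day 4, and in its change from day 1 to day 2 from -0.03 to 0.18. With 4-OHT in FL/FL cells on day 4, Parp1 ran from -0.04 to 0.07 and Parp2 from -0.07 to 0.12. From day 2 to day 3 in untreated cells, Parp11 ran from -0.13 to 0.06 and Zc3hav1 from -0.02 to 0.03.

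No paired analysis was possible because the labels give no replicate numbers. The sample titles are serial numbers whose meaning the labels do not give, and a link between libraries of different days was not tested.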
